A study of Homo sapiens with 6 samples.

Results

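The genes described here are 40 genes of the non-collagen extracellular matrix, taken by symbol: 22 of the interstitial matrix and 18 laminins, nidogens and proteoglycans of basement membranes and cell surfaces. On the arrays 39 of the 40 were measured, by 87 of the 22215 probe sets tested, a probe set being a group of short probes for the same transcript. The laminin chain gene LAMA3 was not analysed here. All probe sets that the array annotation assigns to these symbols alone were used, and a gene was counted by its brightest probe set, that with the highest mean over all arrays. SUM-159, a triple negative breast cancer line of mesenchymal character, was stably transfected with SH3GL2 (3 arrays) or with the empty vector (3 arrays). SH3GL2, also called endophilin A1, is an endocytic membrane-bending protein that the study treats as a metastasis suppressor. Both lines were grown under the same protocol, and the study describes stable clones kept under G418 selection, without saying for this line whether clones were pooled or whether the triplicates were separate cultures. If they were not, the p-values measure only technical spread. Separate cultures of the same transfected line would add only spread within that line. Differences between the lines that arose in transfection or selection cannot be told apart from an effect of SH3GL2.

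The matrix around a cell has distinct layers. The interstitial matrix is a mesh in which fibronectin and matricellular proteins such as thrombospondins, tenascin C and SPARC modulate adhesion, fibrillins and elastin form elastic fibres, and small leucine-rich proteoglycans such as decorin bind collagen fibrils. Basement membranes are sheets in which laminin trimers, each of an alpha, a beta and a gamma chain, are linked by nidogens and by the heparan sulfate proteoglycans perlecan and agrin. Syndecans and glypicans are proteoglycans of the cell surface itself, where they serve as co-receptors. Carcinoma cells of mesenchymal type are known for producing interstitial matrix, whereas basal epithelial cells are known for the laminin of hemidesmosomes, to which LAMB3 contributes the beta chain.

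The values are log2 signals, in which a difference of 1 is a doubling. Across the 6 arrays the medians lay between 6.97 and 7.02, and pairs of arrays correlated, across probe sets that are themselves no replicates, at a Pearson r of 0.9971 to 0.9982 in the same group and 0.9947 to 0.9965 across groups. As a yardstick for weak signal, 79 probe sets of 46 genes of other organs centred on a median of 5.25, with their 95th percentile at 7.19, called here the reference median and the reference 95th percentile. The single probe set of SH3GL2 read 3.26 ± 0.09 in SH3GL2 cells and 3.22 ± 0.04 in empty vector cells (SD, n = 3 each). The difference was 0.03, with both means below the reference median. These arrays thus showed no rise of SH3GL2 and could not check the labels. Whether this probe set detects the transfected transcript was not tested. The 7 genes listed for a mesenchymal breast cancer line include VIM, but also KRT18, a keratin of epithelial cells. All 7 lay above the reference 95th percentile. Of 10 luminal markers only GATA3 did so, and 6 (among them CDH1 and EPCAM) lay below the reference median. None of 8 markers of endothelial and blood cells exceeded the 95th percentile.

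In SH3GL2 cells several adhesive and matricellular genes of the interstitial matrix were lower, while a laminin chain and a syndecan were higher. Of the 39 genes measured, 7 were lower, 3 were higher and 29 did not pass the moderated test of limma at an adjusted p of 0.05. THBS1, TNC, FSTL1, FN1, SPARC, FBN1 and SPOCK1 were lower, and LAMB3, SDC1 and DCN were higher. This was 17.9% lower and 7.69% higher, against 2.36% lower and 2.54% higher of all 11963 genes counted the same way. Among genes whose brightest probe set had a mean above the reference 95th percentile, 6 of 21 matrix genes were lower and 3 were higher, where 3.33% and 3.70% of 6568 genes were called in those directions. LAMB3 is among the 3 only through its SH3GL2 mean of 7.87, its empty vector mean of 7.15 lying below that percentile. By probe set, 16 of 87 were lower and 5 were higher, beside 2.18% and 1.99% of all 22215. Most changes were under 2-fold: the log2 fold changes of the brightest probe sets ran from -0.90 for THBS1 to 0.72 for LAMB3. The median over the 39 genes was 0.00, beside 0.02 over all genes. One-way analysis of variance, which takes the spread from each probe set on its own, called none of the 39 after adjustment, and 48 of all 11963 genes. At an unadjusted p under 0.05 it had 9 of the 39 lower and 6 higher, beside 5.99% and 8.23% of all genes.

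**Figure D1:**
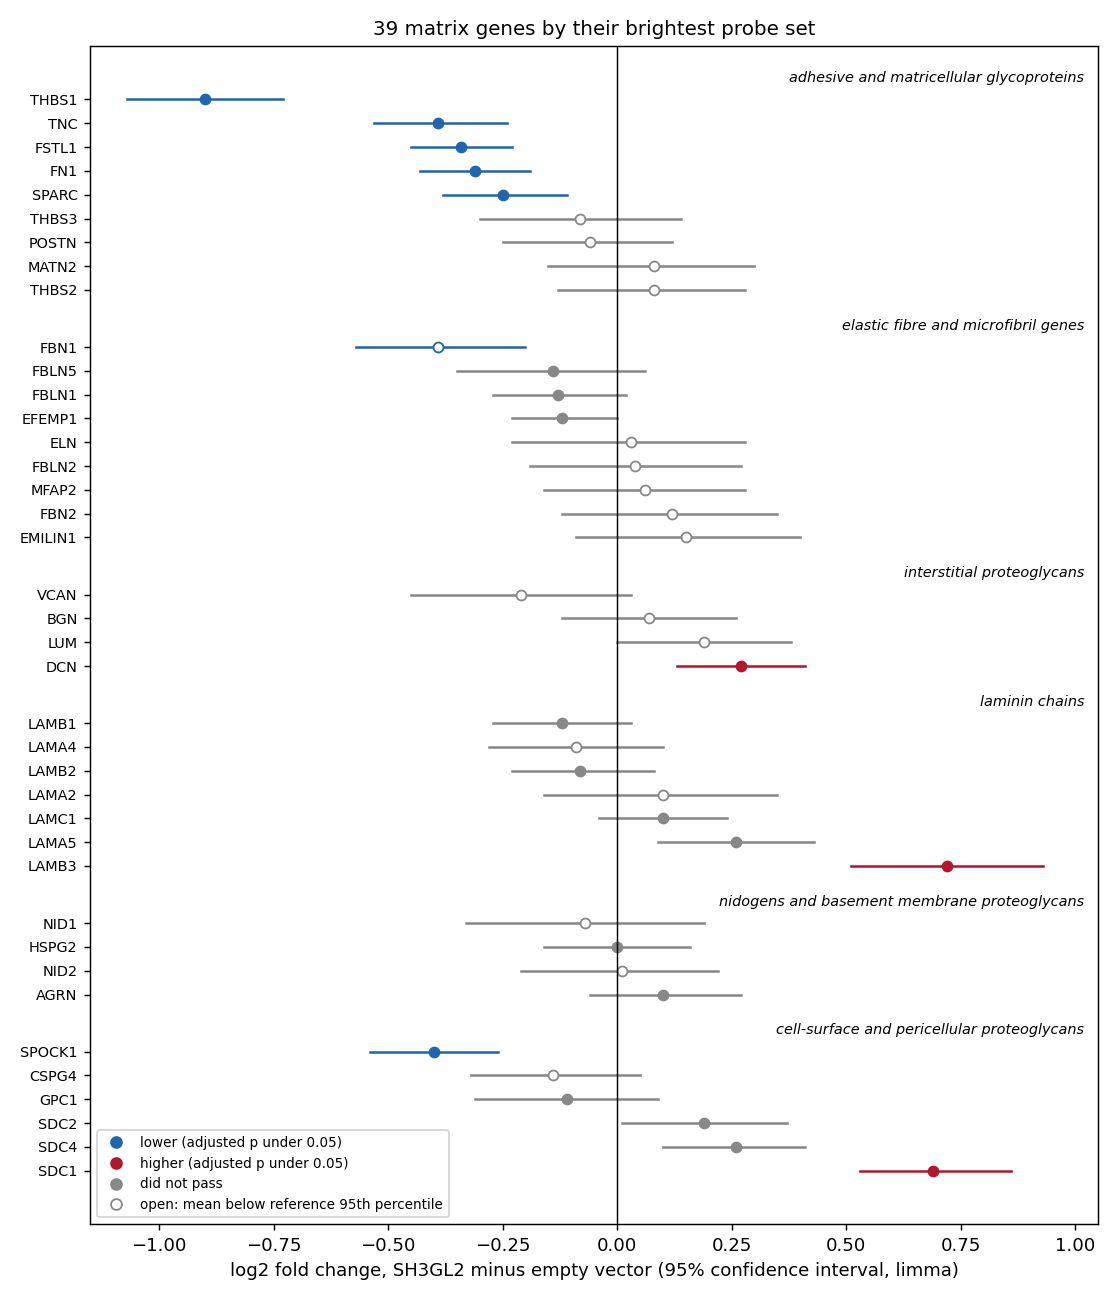
Log2 fold change (SH3GL2 minus empty vector, 3 arrays each) of the brightest probe set of each of 39 matrix genes, with 95% confidence intervals from limma, grouped by role. Filled points have a mean above the reference 95th percentile, and color marks genes that passed. The genes lower in SH3GL2 cells are mostly adhesive and matricellular, and LAMB3 at 0.72 and SDC1 at 0.69 stand farthest to the right.

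The interstitial matrix and the other genes were set side by side. Of 22 interstitial genes 6 were lower and 1 was higher, and of 17 laminins and proteoglycans measured 1 was lower and 2 were higher. The median log2 fold change was -0.07 in the interstitial matrix and 0.01 in the laminins and proteoglycans, a difference of -0.08. That difference, which was not tested, was -0.15, -0.10 and -0.14 when each SH3GL2 array was set against the empty vector mean. Within the interstitial matrix the lower genes were unevenly placed. The adhesive and matricellular group held 5 of the 6 (5 of 9 genes, median -0.25), the elastic fibre group held 1 of 9 (median 0.03), and none of the 4 interstitial proteoglycans was lower. Among genes with a mean above the reference 95th percentile the medians were -0.25 for 9 interstitial genes, 5 of them lower, and 0.10 for 12 laminins and proteoglycans, 1 of them lower. The 12 include LAMB3, whose empty vector mean lay below that percentile. Signal level moved with the calls: all 5 adhesive genes above that percentile were lower, and the 4 below it, THBS2, THBS3, POSTN and MATN2, did not pass (log2 fold changes from -0.08 to 0.08). The part of signal level in the contrast was not tested.

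THBS1 encodes thrombospondin 1, a matricellular glycoprotein that binds cells, activates latent TGF-beta and inhibits angiogenesis. Its brightest probe set read 11.59, 11.31 and 11.36 in SH3GL2 cells and 12.22, 12.28 and 12.46 in empty vector cells. Every SH3GL2 array lay well below every empty vector array. The log2 fold change was -0.90 (limma SE 0.08, adjusted p = 2.18e-05), so the signal was 53.6% of that with empty vector. A further 3 probe sets were also lower, at -1.01, -1.05 and -0.80, the last with an SH3GL2 mean of 6.41 below the reference 95th percentile. The dimmest lay below the reference median and had -0.22 (adjusted p = 0.4). THBS1 was thus lower on 4 of 5 probe sets and was called with any single array left out (adjusted p from 1.98e-05 to 0.000314).

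Promoter windows from RefSeq (GRCh38.p14), covering 250 bases before to 50 bases after an annotated start, are shown for THBS1, which fell most, and for SDC1 and LAMB3, which rose most; shorter stretches of SPARC and FBN1 are shown because they hold the same motif as THBS1. Of the members, 31 had a window, with 38 windows among them. A member was counted if any of its windows held a match. The shares of all windows are per window, so counts and shares are not alike. CATTCC, the core that TEAD factors are known to bind, was searched on both strands and occurs in 14.0% of all 35116 windows. It was found at 5 of the 31 members, of which THBS1, SPARC and FBN1 were called lower and none was called higher. Only 2 members called higher had a window. CACCTG, an E-box core known to be bound by ZEB1 and SNAI factors, occurs in 20.6% of windows and was found at 7 members, including SDC1 and LAMB3 and none of the 6 called lower that had a window. The others of the 7 were CSPG4, LAMA3, LAMA5, MFAP2 and THBS3. GGGCGG, the GC box, was present at 25 members (45% of all windows). TGANTCA, the AP-1 core, was found at 4 (7.71%), among them LAMB3 and LAMA3, and TATAAA at 3 (11.5%). The CArG box was found at none (1.29%). These matches are letters in a window, not binding sites, and their bearing on the expression differences was not tested. The window of THBS1, at chr15:39580829-39581128 on the plus strand, has the CATTCC match in capitals as its reverse complement, 46 bases before the start.
THBS1: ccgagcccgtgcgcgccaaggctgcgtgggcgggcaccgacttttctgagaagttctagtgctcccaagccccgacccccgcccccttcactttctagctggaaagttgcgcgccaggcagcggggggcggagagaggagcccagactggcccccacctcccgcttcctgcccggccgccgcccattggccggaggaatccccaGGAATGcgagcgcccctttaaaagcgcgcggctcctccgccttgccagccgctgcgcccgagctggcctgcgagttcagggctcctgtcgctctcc
The SDC1 window, at chr2:20225426-20225725 on the minus strand, is 1 of 2 annotated for the gene, and its capitals mark CACCTG, 29 bases before the start.
SDC1: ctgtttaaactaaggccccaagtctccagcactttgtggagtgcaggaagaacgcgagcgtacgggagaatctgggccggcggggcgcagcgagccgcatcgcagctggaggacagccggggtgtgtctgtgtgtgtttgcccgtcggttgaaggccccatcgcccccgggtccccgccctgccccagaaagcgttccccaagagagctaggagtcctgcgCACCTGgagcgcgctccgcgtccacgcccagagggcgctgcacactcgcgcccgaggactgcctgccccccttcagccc
The LAMB3 window, at chr1:209652376-209652675 on the minus strand, is 1 of 3 for the gene, and its capitals mark the reverse complement of CACCTG, 218 bases before the start.
LAMB3: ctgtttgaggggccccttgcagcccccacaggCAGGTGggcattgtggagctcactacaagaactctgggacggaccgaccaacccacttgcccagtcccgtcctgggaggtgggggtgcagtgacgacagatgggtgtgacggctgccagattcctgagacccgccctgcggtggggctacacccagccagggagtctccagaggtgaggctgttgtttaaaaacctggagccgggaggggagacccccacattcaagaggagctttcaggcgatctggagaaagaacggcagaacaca
The CATTCC matches of SPARC (chr5:151686907-151686952, minus strand, 17 bases before the start) and FBN1 (chr15:48645003-48645048, minus strand, 58 bases before the start) are shown with 20 bases on each side, the capitals marking the match on either strand.
SPARC: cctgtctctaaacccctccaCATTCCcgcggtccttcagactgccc
FBN1: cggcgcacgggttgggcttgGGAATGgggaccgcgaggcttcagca

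The glycoproteins FN1, TNC, FSTL1 and SPARC were lower by smaller amounts. FN1 encodes fibronectin, the main adhesive glycoprotein of the interstitial mesh and an integrin ligand. Its brightest probe set read 13.31, 13.12 and 13.33 in SH3GL2 cells and 13.54, 13.53 and 13.62 in empty vector cells, with no overlap. The log2 fold change was -0.31 (SE 0.06, adjusted p = 0.00592). Of 6 FN1 probe sets 4 were lower, and the other two had similar values of -0.31 and -0.44 that did not pass (adjusted p = 0.0690 and 0.0730). TNC encodes tenascin C, an anti-adhesive protein of wounds and tumor stroma. It read 10.09, 10.05 and 10.06 in SH3GL2 cells, against 10.43, 10.35 and 10.58 in empty vector cells. The 3 SH3GL2 arrays were nearly identical and all lay below the empty vector arrays, with a log2 fold change of -0.39 (SE 0.07, adjusted p = 0.00490). Its other probe set, at means of 5.48 and 5.52 below the reference 95th percentile, had -0.04 (adjusted p = 0.931).

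FSTL1, a secreted glycoprotein of the follistatin family that binds BMP ligands, had 10.94, 10.97 and 10.98 in SH3GL2 cells and 11.24, 11.34 and 11.33 in empty vector cells. The groups were far apart relative to their spread, at -0.34 (SE 0.05, adjusted p = 0.00212). SPARC, a collagen-binding matricellular protein also called osteonectin, read 10.92, 11.09 and 10.91 in SH3GL2 cells and 11.17, 11.25 and 11.24 in empty vector cells. Its log2 fold change was -0.25 on that probe set (adjusted p = 0.0401) and -0.46 on the dimmer probe set (adjusted p = 0.00244). The brighter SPARC probe set lost its call without any array but SH3GL2 replicate 2 (adjusted p = 0.0707 to 0.203). Calls of FN1, TNC and FSTL1 were kept with any single array left out.

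**Figure D2:**
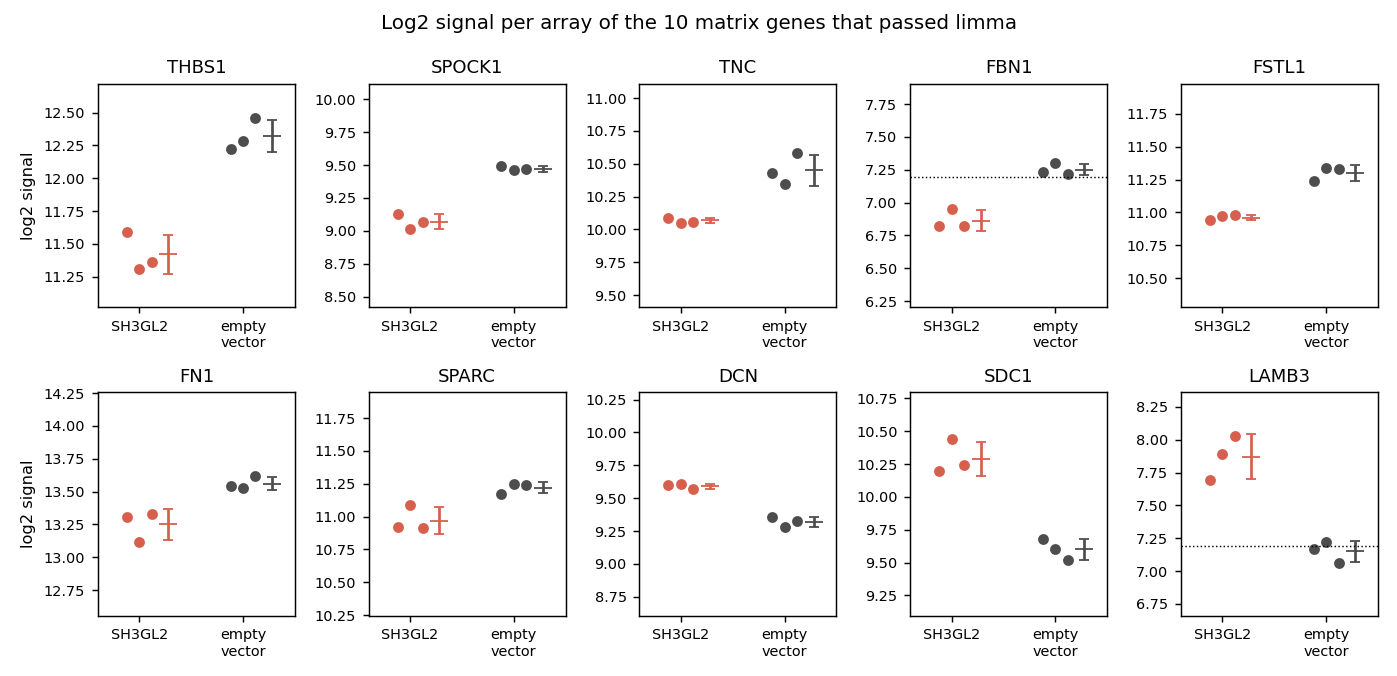
Log2 signal per array of the 10 matrix genes that passed limma, SH3GL2 left and empty vector right in each panel, with mean and SD (n = 3 arrays) and a dotted line at the reference 95th percentile. Every vertical axis spans the same range. The groups are separate in all 10 panels, but the genes were chosen by their test on these same arrays.

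Genes of elastic fibres, which give tissue recoil, mostly did not pass. FBN1 encodes fibrillin 1, the main protein of microfibrils. It had 6.82, 6.95 and 6.82 in SH3GL2 cells and 7.23, 7.30 and 7.22 in empty vector cells. The groups did not overlap, but the SH3GL2 arrays lay below the reference 95th percentile and the empty vector arrays just above it. The log2 fold change was -0.39 (SE 0.09, adjusted p = 0.0217). Its call was lost without empty vector replicate 1 or 2 and without SH3GL2 replicate 1 or 3 (adjusted p = 0.0501 to 0.115), and the other FBN1 probe set had -0.18 (adjusted p = 0.580). FBLN1, encoding fibulin 1, which links fibronectin and elastic fibres, had negative values on all 5 probe sets, from -0.30 to -0.13. Only the third in brightness passed, with 8.31, 8.31 and 8.37 in SH3GL2 cells against 8.74, 8.54 and 8.6 in empty vector cells (adjusted p = 0.0495), and it lost its call without any 1 of the 6 arrays (adjusted p = 0.0790 to 0.153). On the brightest FBLN1 probe set the groups overlapped (-0.13, adjusted p = 0.405). EFEMP1 and FBLN5, further fibulins, had -0.12 and -0.14. On their brightest probe sets ELN, encoding elastin, MFAP2 and EMILIN1, both microfibril-associated, and FBLN2 and FBN2 had values from 0.03 to 0.15. The dimmer probe sets of ELN and FBN2 had -0.16 and 0.21 and did not pass. All these means lay below the reference 95th percentile, where a change would be hard to see.

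Of the 4 interstitial proteoglycans 1 was higher and none was lower (0 also at an unadjusted p under 0.05). DCN, encoding decorin, which coats collagen fibrils and sequesters TGF-beta, read 9.60, 9.61 and 9.57 in SH3GL2 cells and 9.36, 9.28 and 9.33 in empty vector cells. The increase was small but without overlap, at 0.27 (SE 0.06, adjusted p = 0.0284). All 4 DCN probe sets had positive values (0.13 to 0.30) and 2 passed. The call on the brightest was lost whichever array was left out (adjusted p = 0.0514 to 0.143), as it was after median centring (adjusted p = 0.0502). VCAN, encoding versican, a large hyaluronan-binding proteoglycan, had -0.39 to -0.02 on 5 probe sets, none of which passed. BGN, encoding biglycan, had -0.02 to 0.07 and LUM, encoding lumican, 0.19. The means of VCAN, BGN and LUM lay below the reference 95th percentile, with LUM below the reference median.

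**Figure D3:**
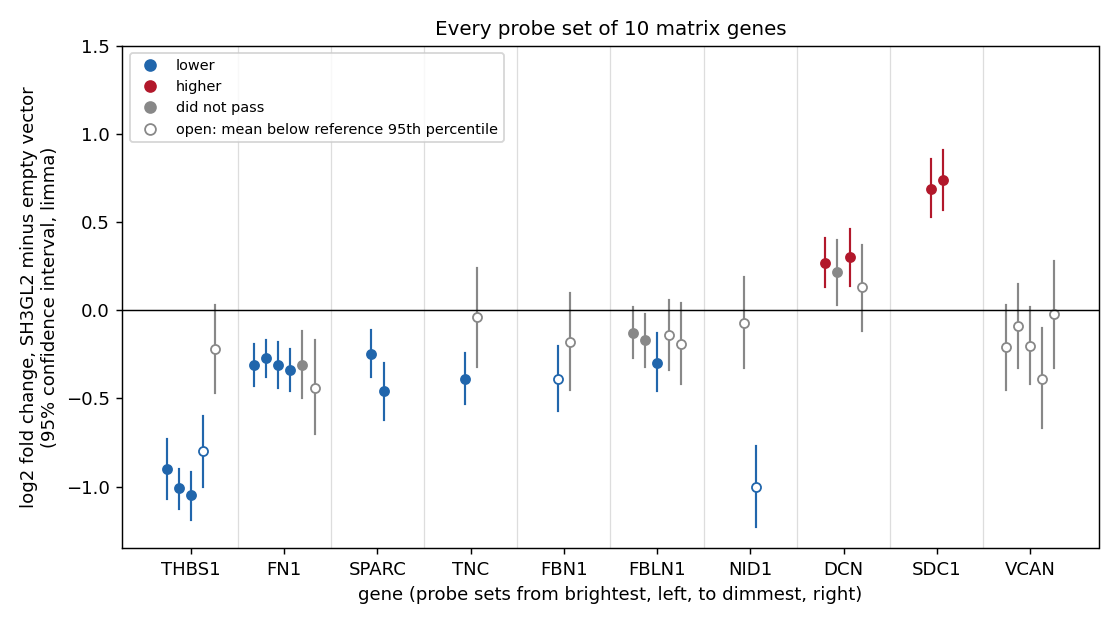
Log2 fold change (SH3GL2 minus empty vector) with 95% confidence intervals from limma for every probe set of 10 matrix genes, ordered within a gene by brightness. Shown are the genes with several probe sets and a call on any of them, and VCAN. Within each of these 10 genes the probe sets share their sign, and those that passed never oppose each other. Some members not shown had mixed signs, among them AGRN (-0.08 to 0.10) and ELN (-0.16 to 0.03). The dimmer NID1 probe set stands apart from its brighter one at -1.0.

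Of the 7 laminin chains measured LAMB3 was higher and none was lower (0 also at an unadjusted p under 0.05), and the median was 0.10. LAMB3, the beta chain of the hemidesmosome laminin, had 7.69, 7.89 and 8.03 in SH3GL2 cells and 7.17, 7.22 and 7.06 in empty vector cells. All SH3GL2 arrays lay above the reference 95th percentile, and the empty vector arrays lay on either side of it. The log2 fold change was 0.72 (SE 0.10, adjusted p = 7.79e-04), a 1.65-fold increase on its only probe set. LAMA5, an alpha chain of epithelial basement membranes, read 8.16, 8.20 and 8.15 in SH3GL2 cells against 7.98, 7.95 and 7.80 in empty vector cells. It had 0.26 and did not pass (adjusted p = 0.0983). The chains LAMB1, LAMB2 and LAMC1, shared by most laminins of soft tissue, had -0.12, -0.08 and 0.10, with 95% confidence intervals between -0.27 and 0.24. LAMA2 and LAMA4, alpha chains of muscle and vessel laminins, had 0.10 and -0.09.

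The linkers of the basement membrane showed no called change on their brightest probe sets. HSPG2, encoding perlecan, had 0.00 and AGRN, encoding agrin, 0.10, and NID2 had 0.01 at a mean below the reference median. The dimmer HSPG2 probe set had 0.24 (adjusted p = 0.197), and the 4 AGRN probe sets ran from -0.08 to 0.10 without passing. NID1, encoding nidogen 1, had probe sets that disagreed. Its dimmer one read 3.38, 3.36 and 3.47 in SH3GL2 cells and 4.22, 4.39 and 4.61 in empty vector cells, a log2 fold change of -1.0 (SE 0.11, adjusted p = 1.15e-04). The brighter one read 4.65, 4.43 and 4.20 against 4.40, 4.63 and 4.47 and did not differ beyond the spread (-0.07, adjusted p = 0.844). Both probe sets lay below the reference median in every array, so the size of a NID1 change cannot be read from them, and with values floored at that median no difference was left.

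Among cell-surface and pericellular proteoglycans SDC1 was higher and SPOCK1, a secreted member, was lower. SDC1, encoding syndecan 1, the main syndecan of epithelial cells, had 10.20, 10.44 and 10.24 in SH3GL2 cells and 9.68, 9.60 and 9.52 in empty vector cells. The groups were separated by more than the range within either. The log2 fold change was 0.69 (SE 0.08, adjusted p = 1.37e-04), a 1.62-fold increase, and the other probe set gave 0.74 (adjusted p = 1.12e-04). SDC4, a syndecan of focal adhesions, read 10.76, 10.75 and 10.95 in SH3GL2 cells against 10.61, 10.45 and 10.63 in empty vector cells. It had 0.26 and did not pass (adjusted p = 0.0674). SDC2, a syndecan of mesenchymal cells, had 0.13 to 0.24 on 3 probe sets without passing. SPOCK1, encoding testican 1, of the SPARC family, read 9.13, 9.01 and 9.07 in SH3GL2 cells and 9.49, 9.46 and 9.47 in empty vector cells. It was lower, at -0.40, on its only probe set (SE 0.07, adjusted p = 0.00282). GPC1, a glypican anchored to the membrane by lipid, had -0.11, and CSPG4, encoding the transmembrane proteoglycan NG2, -0.14, neither passing. Their dimmer probe sets had 0.04 and -0.32 and did not pass either (adjusted p = 0.892 and 0.160). Calls of SDC1, SPOCK1 and LAMB3 were kept with any single array left out.

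Other genes of the matrix were read from lists of related genes. Over all genes, counted by their brightest probe set, 2.36% were lower and 2.54% higher. Among 26 further matrix glycoproteins limma called 1 lower and 0 higher after adjustment. Its unadjusted p was under 0.05 for 2 lower and 2 higher. Analysis of variance called 0 of the 84 related genes measured after adjustment, with 9 lower and 14 higher at an unadjusted p under 0.05. TGFBI, an integrin-binding protein induced by TGF-beta, had 13.40, 13.39 and 13.52 in SH3GL2 cells against 13.65, 13.57 and 13.62 in empty vector cells, a log2 fold change of -0.18 (adjusted p = 0.0478). Of 15 further proteoglycans SRGN, encoding the intracellular granule proteoglycan serglycin, was lower, at -0.31 (adjusted p = 0.0270) and on its other probe set at -0.35 (adjusted p = 0.00170). TGFBI lost its call without any array but SH3GL2 replicate 3 (adjusted p = 0.0890 to 0.147), and SRGN lost it without empty vector replicate 2 or 3 or SH3GL2 replicate 2 or 3 (adjusted p = 0.0594 to 0.127). Of 3 further laminin chains none passed.

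Enzymes that build glycosaminoglycan chains were mostly not called, with 1 of 26 lower and 2 higher, beside 2.36% and 2.54% of all genes. XYLT1, the xylosyltransferase that starts the chains of proteoglycans, read 7.19, 7.22 and 7.42 in SH3GL2 cells and 7.77, 7.85 and 7.97 in empty vector cells. It was lower in all 3 arrays, at -0.59 (SE 0.09, adjusted p = 0.00228). DSE, the epimerase that turns chondroitin into dermatan sulfate, the chain type decorin carries, was higher by 0.36 (adjusted p = 0.0166). CHST15, a chondroitin sulfotransferase, was higher by 0.40 (adjusted p = 0.0383). DSE lost its call without empty vector replicate 1 or 2 or SH3GL2 replicate 1 or 3 (adjusted p = 0.0662 to 0.108). CHST15 lost it without empty vector replicate 1 or 2 or SH3GL2 replicate 2 or 3 (adjusted p = 0.0941 to 0.155).

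Of 14 matrix receptors 4 were higher and 1 was lower, beside 2.54% and 2.36% of all genes. ITGA6 and ITGB4 form the integrin that binds the LAMB3-containing laminin in hemidesmosomes. ITGA6 had 10.42, 10.45 and 10.39 in SH3GL2 cells against 9.83, 9.98 and 10.01 in empty vector cells, and ITGB4 had 7.98, 8.06 and 7.98 against 7.22, 7.26 and 7.42. Both were higher without overlap, at 0.48 (adjusted p = 6.91e-04) and 0.71 (adjusted p = 2.71e-04). The second ITGA6 probe set also rose, by 0.42, whereas 3 dimmer ITGB4 probe sets had -0.06 to 0.08 and did not pass. ITGA2, the collagen and laminin receptor chain, read 9.48, 9.30 and 9.44 in SH3GL2 cells and 8.72, 8.6 and 8.84 in empty vector cells, at 0.69 (adjusted p = 2.38e-04). CD47, a receptor of thrombospondin 1, was higher by 0.25 on 1 of 4 probe sets (adjusted p = 0.0361) and is named after its value was seen. ITGB1, the beta chain of most matrix integrins, was lower, at -0.25, on its brightest probe set (adjusted p = 0.0275). That call was lost without empty vector replicate 2 or 3 or SH3GL2 replicate 2 or 3 (adjusted p = 0.0502 to 0.122). The other ITGB1 probe sets lay below the reference median, at -0.20 to 0.17, and did not pass. By the mean of its probe sets ITGB1 had -0.09 (adjusted p = 0.635).

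**Figure D4:**
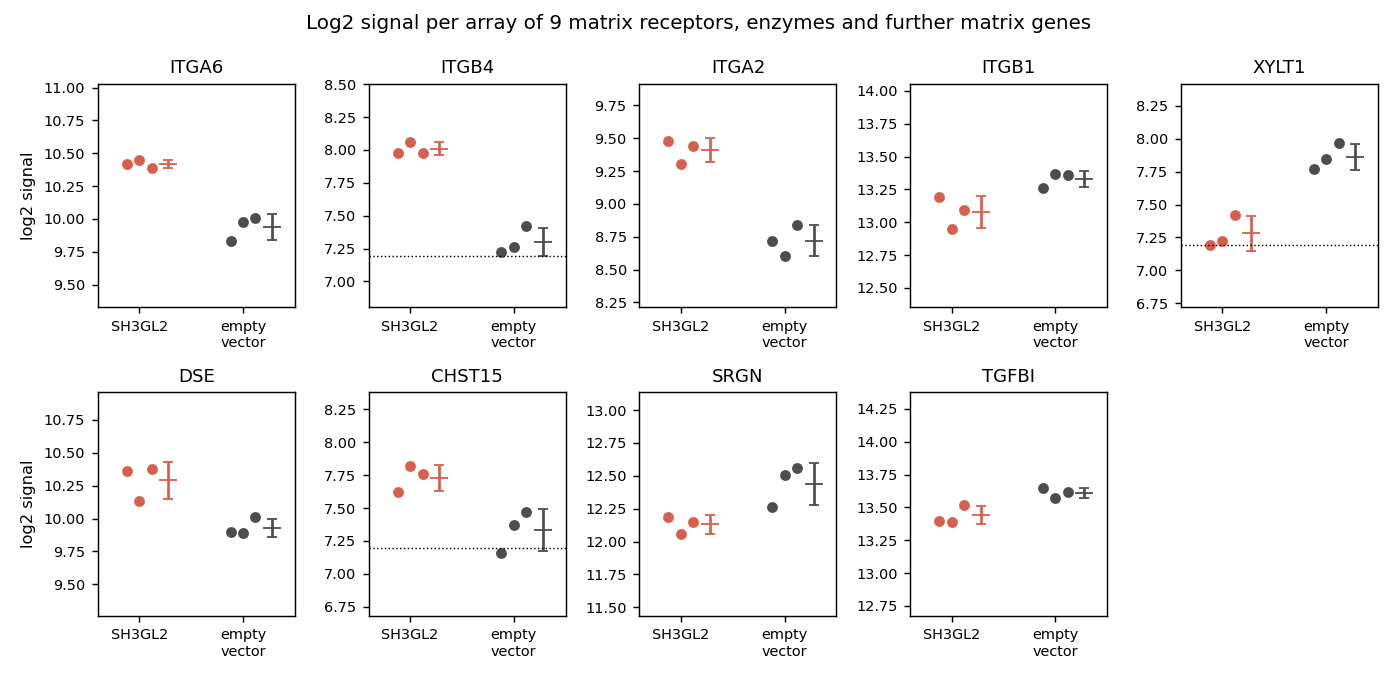
Log2 signal per array of 9 matrix receptors, glycosaminoglycan enzymes and further matrix genes, SH3GL2 left and empty vector right, with mean and SD (n = 3 arrays) and a dotted line at the reference 95th percentile. ITGA6, ITGB4 and ITGA2 are higher in all 3 SH3GL2 arrays, and XYLT1 is lower.

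Some fibroblast and mesenchymal markers were lower beside the interstitial genes. Over all genes, counted by their brightest probe set, 2.36% were lower and 2.54% higher. Of 8 fibroblast markers COL1A1 (-0.66, adjusted p = 0.00038) and COL3A1 (-0.80, adjusted p = 0.000951) were lower, and limma called 0 higher (1 at an unadjusted p under 0.05). That 1 was PDGFRA, at 0.46 without overlap between the groups (adjusted p = 0.0582), and the median of the 8 was 0.01, with 5 positive. COL1A1 was lower on 2 of 4 probe sets, and the other two had -0.03 each, 1 of them above the reference 95th percentile. The summed linear signal of the 8 ran from 789 to 859 in SH3GL2 cells and from 898 to 945 in empty vector cells, and only COL1A1 and PDGFRA exceeded the reference 95th percentile. FAP and COL1A2 lay below the reference median. Of the 7 genes listed for a mesenchymal breast line CAV1, AXL and ZEB1 were lower. Among all genes above the reference 95th percentile 3.33% were lower. VIM (-0.11), CD44 (-0.20) and CDH2 (-0.21) did not pass, nor did the epithelial keratin KRT18 at 0.25 (adjusted p = 0.115). The sum of the 7, with KRT18 included, ran from 43419 to 44811 in SH3GL2 cells and from 48816 to 49492 in empty vector cells. VIM, the brightest at a mean of 14.63, weighs most in that sum. Fewer cells of a kind and less RNA per cell cannot be told apart in bulk RNA, and the part of these markers in the matrix differences was not tested.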

How the data were processed

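Total RNA of SUM-159 cells stably transfected with SH3GL2 or empty vector was run on GeneChip Human Genome arrays of Affymetrix, with 3 arrays for each group. The authors scanned and analysed the arrays with GCOS software, and the submitters' processing notes name MAS5 with no version. The values the authors deposited are on a log2 scale, judged from their range of 2.82 to 15.31. The method of scaling between arrays is not given in the sources used here. Unequal scaling would shift all genes of an array, which median centring and quantile normalization were used to check.

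Values were used as deposited. Of 22277 probe sets 62 controls were left out. The platform annotation names 1 gene for 19064 of those left, more than 1 for 1043, and no gene for 2108. Against RefSeq, 0 symbols needed an update. Groups were compared with limma 3.58.1 in R 4.3.3 (two-sided, lmFit and then eBayes, with the prior following intensity), Benjamini-Hochberg adjusted over 22215 probe sets, at 0.05. The paper names no test for the arrays. Means carry the SD of 3 arrays, and SE is the standard error from limma. The number of arrays limits the precision, and an exact permutation test could not go below 0.1. Figures used Python 3.11.15 and matplotlib 3.10.9.

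The genes and lists were chosen with earlier results of these data known. All members are accounted for. Array values are given for those with a called probe set, and also for LAMA5 and SDC4, which had none and were both positive. Up to 4 genes of each related list are named by smallest adjusted p. A withheld item is not reported here. The fitting code was tested on simulated data. Alternatives are given in the closing section.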

Additional observations from a re-analysis of the deposited data

How the results depend on the processing

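The counts of 7 matrix genes lower, 3 higher and 6 interstitial genes lower stayed within 1.5 times under quantile normalization, median centring, 16 added before the logarithm, a robust prior, no intensity trend, an adjusted p under 0.01, the brighter probe sets alone, the mean of a gene's probe sets, and each array left out. Named calls ended within those counts. Without an intensity trend FN1 (adjusted p = 0.0875), SPARC (0.152) and DCN (0.0745) did not pass. By the mean of probe sets TNC had -0.21 (adjusted p = 0.201), and FBN1 (0.0871) and DCN (0.102) did not pass. With values floored at the reference median 3 matrix genes (2 interstitial) were lower, and 0 related genes were lower and 3 higher. FN1, SPARC, TNC, FBN1 and LAMB3 lost their calls there with the same log2 fold changes (adjusted p = 0.0718 to 0.176), and the cause was not tested. In the analysis of variance 0 members and 0 related genes passed in either direction. Whether same-numbered arrays were handled together is not given by the labels. Their residual correlations were -0.01, 0.13 and 0.15, and those of differently numbered arrays ran from -0.16 to 0.02. A replicate block gave 7 lower and 4 higher, adding SDC4. That gene was also added by quantile normalization and without SH3GL2 replicate 2. The 4 lower and 6 higher related genes were 1 and 3 without an intensity trend and at 0.01, and 2 were lower with the mean of probe sets. With arrays left out they were 1 to 3 lower and 3 to 6 higher. The 1 laminin or proteoglycan gene lower became 2, with NID1, by the mean of probe sets or when any probe set counted, the latter added after seeing the data. The difference of medians of -0.08 was -0.05 with 16 added, -0.04 with the floor, -0.35 in the brighter probe sets and -0.17 with LUM, DCN, BGN and VCAN moved to the other side. It ran from -0.13 to -0.03 with arrays left out, was -0.04 without empty vector replicate 2 or 3 and -0.03 without SH3GL2 replicate 2, and kept its sign throughout. ITGB4 had 0.20 by the mean of probe sets (adjusted p = 0.239). Signal over background limits reading of the 18 members at or below the reference 95th percentile, 7 of them below the reference median.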
